A study of Mus musculus with 27 samples.

Results

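The 10 genes described here, Trim28, Setdb1, Ehmt2, Kdm1a, Chaf1a, Chaf1b, Rif1, Zmym2, Dppa2 and Dppa4, are known regulators of the 2-cell-like state and were chosen by name. The choice was made with earlier results of these data known. Each symbol matched a single row in all 3 deposited count tables, so the set was 10 of the 27080 genes listed there. RNA-seq was made from J1 mESCs, a mouse embryonic stem cell line grown without feeders in serum and LIF, in 12 libraries. In the knockdown (KD) experiment the cells were infected with lentivirus that expressed shGas41-1 (3 libraries) or shGas41-2 (2 libraries), both against Gas41 (Yeats4), or a control shRNA without a target (shNT, 3 libraries), selected with puromycin and harvested 8 days after infection. In the embryoid body (EB) experiment the libraries came from control cells, carrying the control vector by their labels, that were kept with LIF on gelatin (EB day 0, 2 libraries) or grown as aggregates without LIF to EB day 6 (2 libraries). The model was thus 1 cell line, with mixed populations of infected cells rather than clones. The study's methods call the repeats of its experiments biological in general, and the labels did not say which libraries came from separate cultures, so the tests measure the spread between these libraries.

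In mESC cultures a small and changing fraction of cells passes through a 2-cell-like state, in which genes of the 2-cell embryo such as Dux and the Zscan4 cluster are transcribed. Most of the 10 genes encode repressors of that state: Trim28 (KAP1) is brought to repeats by zinc finger proteins and recruits the H3K9 methyltransferase Setdb1, Ehmt2 (G9a) methylates H3K9 in euchromatin, Kdm1a (LSD1) removes H3K4 methylation, and Chaf1a and Chaf1b are subunits of the histone chaperone CAF-1. Rif1 controls replication timing and heterochromatin, and Zmym2 is a SUMO-binding partner of LSD1 complexes. Dppa2 and Dppa4 bind each other on DNA and act on the other side, as activators of Dux.

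The libraries held between about 59224500 and 81524800 counts, so that 3 counts corresponded to between 0.0373 and 0.0493 CPM (the count relative to a library size scaled by TMM), and all 10 genes were far above that level in every library. Yeats4, the targeted gene, was at 61.2, 53.1 and 50.9 CPM with shNT, at 3.46, 4.39 and 5.10 CPM with shGas41-1 and at 8.81 and 7.95 CPM with shGas41-2. Every KD library was below every control library, and the EB libraries were between 41.6 and 52.5 CPM. Within a group the log2 CPM of libraries correlated across genes with r of 0.982 or more. shGas41-1 replicate 3 departed most from its group mean (0.367 on the log2 scale, root mean square over genes), and shNT replicate 1 was the next (0.346).

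In mm9, Dppa4 (chr16:48283848-48294405) and Dppa2 (chr16:48310590-48319836) lay on the same strand, 16184 bases apart with no annotated gene between them. Chaf1b was on the same chromosome (chr16:93884146-93906360). The other members were at chr7:13609501-13616384 (Trim28), chr3:95127447-95161124 (Setdb1), chr17:35035414-35050997 (Ehmt2), chr17:56179827-56206973 (Chaf1a), chr4:136106455-136158638 (Kdm1a), chr2:51928357-51977903 (Rif1) and chr14:57505490-57579182 (Zmym2). Levels between genes were compared per kb of merged exon. With shNT, Trim28 was the most highly expressed member by a wide margin, at 482 ± 17.2 CPM per kb (SD, n = 3). Dppa4 followed with 73.4 ± 6.46, Dppa2 with 53.3 ± 9.34 and Kdm1a with 48.1 ± 0.995 CPM per kb. Rif1 (34.0), Chaf1a (27.6), Setdb1 (22.9), Ehmt2 (15.3), Zmym2 (14.2) and Chaf1b (9.31 CPM per kb) were lower.

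RefSeq promoters (GRCm38.p6) of 7 of the 10 genes were in the table used here, and those of Dppa2, Dppa4 and Rif1 were not analysed here. The 250 bases before the first listed start are shown for members that moved in opposite directions between EB day 0 and EB day 6: Chaf1b (chr16:93883651-93883900) and Zmym2 (chr14:56886353-56886602), which rose, and Trim28 (chr7:13023902-13024151), Setdb1 (chr3:95357203-95357452, minus strand) and Kdm1a (chr4:136602724-136602973, minus strand), which fell. Each runs 5′ to 3′ on the strand of its gene. Capitals mark the GC box (GGGCGG) and the CCAAT box (CCAAT) on either strand.
Chaf1b: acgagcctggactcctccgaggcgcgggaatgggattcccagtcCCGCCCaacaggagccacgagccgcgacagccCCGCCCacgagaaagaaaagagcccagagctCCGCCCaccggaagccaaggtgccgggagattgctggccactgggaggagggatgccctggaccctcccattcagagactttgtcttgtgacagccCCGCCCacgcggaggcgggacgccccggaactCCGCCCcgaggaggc
Zmym2: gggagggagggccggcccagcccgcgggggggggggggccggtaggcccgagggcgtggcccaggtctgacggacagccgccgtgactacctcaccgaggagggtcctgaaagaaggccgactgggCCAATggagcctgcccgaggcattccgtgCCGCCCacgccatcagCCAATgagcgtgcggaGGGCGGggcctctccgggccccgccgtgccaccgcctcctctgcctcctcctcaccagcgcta
Trim28: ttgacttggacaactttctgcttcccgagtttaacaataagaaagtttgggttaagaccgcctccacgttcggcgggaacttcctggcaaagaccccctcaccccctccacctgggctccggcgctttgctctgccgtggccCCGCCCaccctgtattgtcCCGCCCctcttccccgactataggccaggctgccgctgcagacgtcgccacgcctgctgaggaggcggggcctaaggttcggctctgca
Setdb1: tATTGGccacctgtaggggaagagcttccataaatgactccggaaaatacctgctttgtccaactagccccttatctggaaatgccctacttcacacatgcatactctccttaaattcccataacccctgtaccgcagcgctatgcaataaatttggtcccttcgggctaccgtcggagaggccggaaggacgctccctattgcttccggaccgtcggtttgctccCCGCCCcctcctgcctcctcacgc
Kdm1a: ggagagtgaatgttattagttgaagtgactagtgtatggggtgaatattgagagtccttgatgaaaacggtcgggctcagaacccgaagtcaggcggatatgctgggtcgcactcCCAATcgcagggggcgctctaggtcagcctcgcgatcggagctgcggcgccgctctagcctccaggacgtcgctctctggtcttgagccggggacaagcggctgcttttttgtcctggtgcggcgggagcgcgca

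The GC box letters occurred in 32.7% and the CCAAT letters in 33.8% of all 32851 RefSeq promoter windows of this length. The Chaf1b window held 5 GC boxes, that of Zmym2 held 2 GC boxes and 2 CCAAT boxes, that of Trim28 held 2 GC boxes, that of Setdb1 held a GC box and a CCAAT box, and that of Kdm1a held a CCAAT box alone. Both kinds of box thus occurred in members of either direction. The letters of the octamer (ATGCAAAT), of 2 E2F sites (TTTGGCGC and TTTCCCGC), of a YY1 site (AAGATGGC) and of the TATA box (TATAAA) were in none of these windows on either strand.

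To ask whether loss of Gas41 was accompanied by a change in these regulators, each KD was compared with shNT. Only Dppa2, Rif1 and Chaf1b passed in any of the 3 comparisons. None changed by 2-fold or more, against 10.3% of all genes with shGas41-1, 4.82% with shGas41-2 and 8.82% with the mean of both. With shGas41-1, 2 of 10 members passed an FDR of 0.05 (edgeR quasi-likelihood test, Benjamini-Hochberg adjustment), against 18.5% of all 18274 genes tested: the activator Dppa2 and the repressor Rif1, both higher. With shGas41-2, 0 of 10 passed, against 9.91% of 18405 genes. An unadjusted p under 0.05 was found for 4 members, against 28.3% of all genes. DESeq2 called 3 members (Trim28, Dppa2 and Rif1), against 2932 of the 18405 genes. The shGas41-1 and shGas41-2 comparisons used the same shNT libraries. With the mean of both shRNAs, 3 of 10 passed, against 20.5% of 19146 genes: Dppa2 and Rif1 were higher and Chaf1b was lower. The members' median log2 fold change was -0.01 there, beside 0.00 for all genes. In bulk RNA, a change in the share of 2-cell-like cells and a change in RNA per cell cannot be told apart. These counts changed with the libraries used, as did those of all genes. Without shNT replicate 2, the shGas41-1 count was 0, against 1441 of 18819 genes. That of the mean was then 1 (Rif1), against 1854 of 19198 genes. Without shGas41-1 replicate 3 both were 4 (Trim28, Chaf1b, Dppa2 and Rif1), against 3848 of 18676 and 5236 of 19099 genes.

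**Figure D1:**
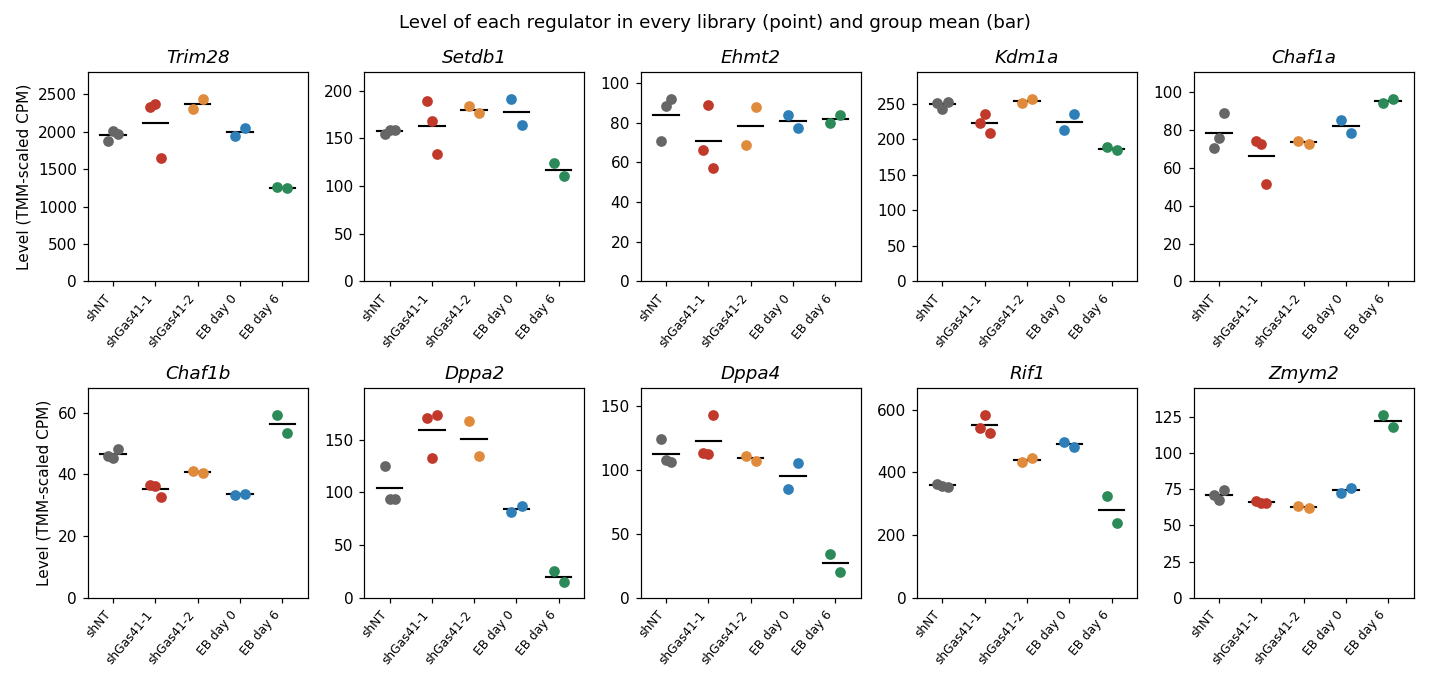
Level of the 10 regulators in TMM-scaled CPM (vertical axis, from 0) in the 5 groups (horizontal axis), with 1 point per library and a bar at the group mean. Dppa2 was above the highest shNT library in all 5 KD libraries, Rif1 was higher in KD and at EB day 0 than with shNT, and Dppa2 and Dppa4 were lowest at EB day 6.

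Dppa2, which acts with Dppa4 on Dux, was at 125, 93.6 and 93.2 CPM with shNT. The 3 shGas41-1 libraries had 170, 133 and 173 CPM, and those of shGas41-2 had 168 and 134 CPM. All 5 KD libraries were above the highest shNT library, shNT replicate 1, and the KD groups overlapped each other. The log2 fold change was 0.63 ± 0.17 (SE, FDR 0.035) with shGas41-1, 0.55 ± 0.16 (FDR 0.0665) with shGas41-2 and 0.58 ± 0.15 (FDR 0.0256) for the mean of both, or 1.49-fold. Leaving out 1 library at a time kept the mean between 0.49 and 0.74, with an FDR of up to 0.116. It passed in 4 of 8 such fits and missed without shNT replicate 2, shNT replicate 3, shGas41-1 replicate 1 or shGas41-2 replicate 1.

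Dppa4, the partner of Dppa2, was at 124, 108 and 106 CPM with shNT. With shGas41-1 it was at 113, 112 and 142 CPM, and 111 and 107 CPM were found with shGas41-2. The ranges overlapped, with the highest value in shGas41-1 replicate 3. The log2 fold change for the mean of both shRNAs was 0.04, with a 95% interval from -0.23 to 0.31 (FDR 0.836). Whether Dppa2 and Dppa4 responded differently was not tested.

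The exons of both genes have near copies elsewhere in the genome. Of the exon bases, 85.6% of those of Dppa2 and 93.1% of those of Dppa4 had a match of 95% identity or more over at least 100 bases outside the gene, and 47.4% and 49.0% of their 50-base words occurred there exactly. The longest match of Dppa2 lay on Gm9788 (chr19:41534336-41535989), which was at 20.3, 15.3 and 15.2 CPM with shNT and between 20.9 and 29.1 CPM in KD. Its counts were between 14.3% and 17.3% of those of Dppa2 in all 12 libraries. Gm14058 (chr2:122039848-122041066), on a match of Dppa4, held between 14.8% and 18.7% of the Dppa4 counts. Among 19612 genes ranked by the distance of their pattern over the 5 group means, Gm9788 was nearest to Dppa2 (0.05 on the log2 scale) and Gm14058 nearest to Dppa4 (0.03). The next for Dppa2 were Vav1 (0.07) and Gm15728 (0.08), and for Dppa4 they were Il17f (0.06) and Gm14322 (0.07). Dppa4 ranked 371 for Dppa2, at 0.34. How reads were shared between each gene and its copies was not tested, so the levels of Dppa2 and Dppa4 are less certain than those of members without copies. Of the other members, Setdb1 matched elsewhere over 15.7% of its exon bases, Zmym2 over 5.66%, Ehmt2 over 4.65% and Chaf1b over 2.24%, and Trim28, Kdm1a, Chaf1a and Rif1 had no such match. Chaf1a shared 5.06% of its exon bases with Ubxn6 on the other strand, and reads of the 2 genes cannot be separated there.

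Rif1 was at 364, 356 and 355 CPM with shNT. It was at 542, 582 and 527 CPM with shGas41-1 and at 432 and 447 CPM with shGas41-2. The 3 groups did not overlap, with shGas41-1 the highest and shNT the lowest. The log2 fold change was 0.64 ± 0.11 (FDR 0.00714) with shGas41-1, 0.30 ± 0.08 (FDR 0.0514) with shGas41-2 and 0.46 ± 0.09 (FDR 0.00736) for the mean, which passed without any 1 of the 8 libraries. The EB day 0 libraries, which are control cells, were however at 499 and 481 CPM, between the KD groups. Against EB day 0 in place of shNT, a comparison chosen after these values were seen, Rif1 differed by 0.01 in KD (FDR 0.977).

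Chaf1b, less abundant per kb than the CAF-1 subunit Chaf1a, was at 45.8, 45.5 and 48.3 CPM with shNT. It was at 36.7, 36.3 and 32.7 CPM with shGas41-1 and at 41.1 and 40.5 CPM with shGas41-2. All KD libraries were below all shNT libraries, and the shGas41-1 libraries below those of shGas41-2. The log2 fold change was -0.38 ± 0.12 (FDR 0.0517) with shGas41-1, -0.18 ± 0.10 (FDR 0.252) with shGas41-2 and -0.29 ± 0.09 (FDR 0.0466) for the mean. The call for the mean was lost in 7 of 8 fits without 1 library, with an FDR of up to 0.154. The EB day 0 libraries were lower still, at 33.5 and 33.8 CPM, and against them Chaf1b was 0.17 higher in KD (FDR 0.19). Chaf1a, also a CAF-1 subunit, ranged from 70.3 to 89.0 CPM with shNT and from 51.5 to 74.2 CPM in KD. Its mean log2 fold change was -0.17, with an interval from -0.47 to 0.14 (FDR 0.408). The ranges of Chaf1a overlapped, and its lowest value was in shGas41-1 replicate 3.

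Trim28 was at 1873, 2006 and 1974 CPM with shNT. It was at 2326, 2368 and 1656 CPM with shGas41-1 and at 2301 and 2436 CPM with shGas41-2. Of the 5 KD libraries 4 were above every shNT library, and shGas41-1 replicate 3 was below all of them. The log2 fold change was 0.14 ± 0.15 (FDR 0.557) with shGas41-1 and 0.29 ± 0.08 (FDR 0.0625) with shGas41-2. Setdb1, which acts with Trim28, was at 155, 158 and 159 CPM with shNT, at 189, 168 and 133 CPM with shGas41-1 and at 184 and 176 CPM with shGas41-2. It showed the same arrangement, with shGas41-1 replicate 3 the lowest KD library, and its mean log2 fold change was 0.13 (FDR 0.468).

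Ehmt2 varied more within groups than between them, from 70.9 to 91.8 CPM with shNT and from 56.9 to 88.8 CPM in KD (-0.17, FDR 0.493). Kdm1a was between 243 and 253 CPM with shNT, between 208 and 236 CPM with shGas41-1 and at 250 and 256 CPM with shGas41-2, so that only the shGas41-1 libraries were below the controls (-0.14 for shGas41-1, FDR 0.389). Zmym2 was between 67.8 and 74.5 CPM with shNT and between 62.2 and 67.0 CPM in KD. The Zmym2 groups did not overlap, but the mean log2 fold change was -0.14, with an interval from -0.33 to 0.06 (FDR 0.286). The share of all genes whose groups did not overlap was not counted, here, for the other members or at EB day 6.

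**Figure D2:**
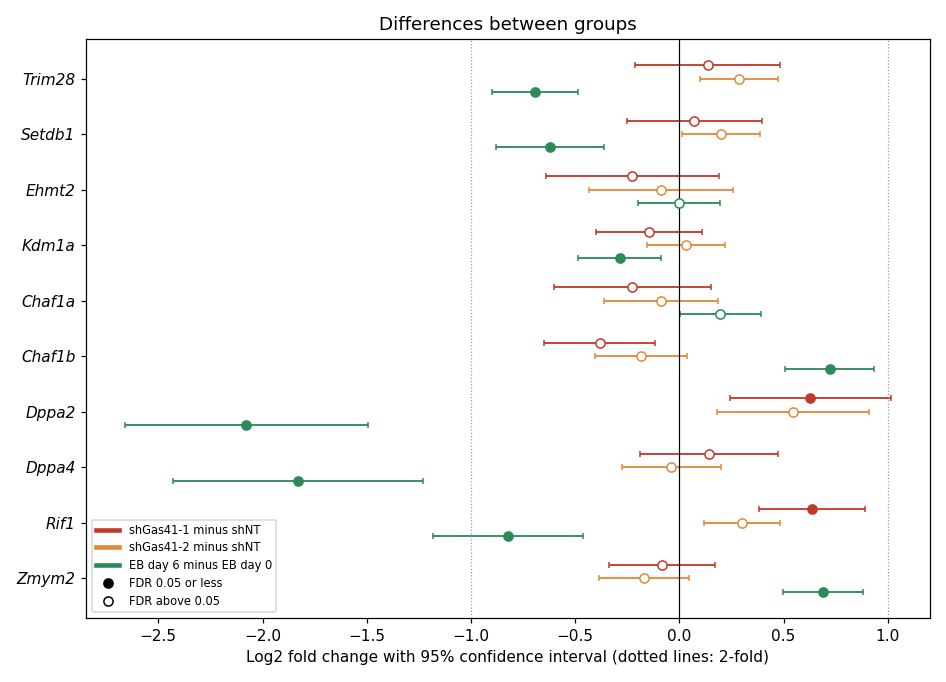
Log2 fold change (horizontal axis) of each regulator for the shGas41-1, shGas41-2 and EB day 6 libraries against their own control group, with 95% confidence intervals. Filled points passed an FDR of 0.05 and dotted lines mark 2-fold. The KD points lay within 2-fold, and at EB day 6 Dppa2 (-2.08) and Dppa4 (-1.83) lay beyond it.

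Differentiation was accompanied by more and larger differences. At EB day 6, 8 of 10 members passed the test against EB day 0, against 58.9% of all 18287 genes: Chaf1b and Zmym2 were higher and Trim28, Setdb1, Kdm1a, Dppa2, Dppa4 and Rif1 were lower. Only Dppa2 and Dppa4 changed by 2-fold or more, against 31.3% of all genes. The median of the 10 log2 fold changes was -0.45, beside 0.00 for all genes. With 1 library left out, an arm holds a single library that is assumed to vary like the others, and without EB day 0 replicate 3 only Trim28, Setdb1, Chaf1b and Zmym2 passed.

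The activators showed the largest falls. Dppa2 was at 80.8 and 86.6 CPM at EB day 0 and at 25.5 and 14.6 CPM at EB day 6. Dppa4 was at 85.0 and 105 CPM at day 0 and at 34.2 and 19.9 CPM at day 6. Both were lower in each day 6 library than in each day 0 library, and both were lowest in day 6 replicate 3. The log2 fold changes were -2.08 ± 0.24 (FDR 0.000566) for Dppa2 and -1.83 ± 0.25 (FDR 0.00109) for Dppa4, and without EB day 0 replicate 3 the FDR was 0.0526 and 0.0653. The copies Gm9788 (-1.96 ± 0.27, FDR 0.00118) and Gm14058 (-1.84 ± 0.21, FDR 0.000545) fell by a like amount.

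Among the repressors, Trim28 was at 1946 and 2053 CPM at EB day 0 and at 1264 and 1247 CPM at EB day 6 (-0.69 ± 0.09, FDR 0.000705). Setdb1 went from 191 and 164 CPM to 124 and 110 CPM (-0.62 ± 0.11, FDR 0.00316). Neither gene overlapped between the days, and both fell by less than 2-fold. Of all genes, 28.4% were lower at EB day 6, and whether the changes of these 2 genes were linked was not tested. Rif1 was at 499 and 481 CPM at day 0 and at 325 and 237 CPM at day 6 (-0.82 ± 0.15, FDR 0.00371, or 0.0872 without EB day 0 replicate 3). Kdm1a was at 213 and 235 CPM at day 0 and at 188 and 185 CPM at day 6, the smallest difference that passed (-0.29 ± 0.08, FDR 0.0228). Its call was lost when any 1 of 3 of the 4 libraries was left out, with an FDR of up to 0.14, and held without EB day 6 replicate 2.

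Chaf1b and Zmym2 went the other way. Chaf1b was at 33.5 and 33.8 CPM at EB day 0 and at 59.1 and 53.4 CPM at EB day 6 (0.72 ± 0.09, FDR 0.000715). Zmym2 was at 72.7 and 76.0 CPM at day 0 and at 126 and 118 CPM at day 6 (0.69 ± 0.08, FDR 0.000551). For both genes the day 6 libraries were also above every shNT and KD library. Chaf1a was at 85.3 and 78.5 CPM at day 0 and at 94.4 and 96.2 CPM at day 6, a non-overlapping difference of 0.20 ± 0.08 that did not pass (FDR 0.0737). Ehmt2, at 84.0 and 77.3 CPM and then at 79.8 and 83.8 CPM, overlapped between the days, with a log2 fold change of 0.00 and an interval from -0.20 to 0.20 (FDR 0.986).

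The KD and EB experiments share no library, so the difference of their effects was tested in 1 fit of all 12 libraries. The KD effect minus the EB effect passed for 7 of 10 members, against 46.0% of 19613 genes. It was positive for Dppa2 (2.63 ± 0.31, FDR 3.12e-05), Dppa4 (1.85 ± 0.27, FDR 0.000188), Rif1 (1.26 ± 0.17, FDR 9.4e-05), Trim28 (0.87 ± 0.19, FDR 0.00269) and Setdb1 (0.72 ± 0.19, FDR 0.00807). It was negative for Chaf1b (-1.04 ± 0.14, FDR 0.000105) and Zmym2 (-0.85 ± 0.13, FDR 0.000241). Of these 7, 4 differed by 2-fold or more (Dppa2, Dppa4, Rif1 and Chaf1b), against 33.1% of all genes. For all 7 the KD and EB estimates had opposite signs, although in KD Trim28, Setdb1, Dppa4 and Zmym2 did not pass. The KD sign of Dppa4 turned with scaling by library size alone (-0.03). Those of Setdb1 (-0.05) and Chaf1b (0.17) turned with EB day 0 as the control. For Ehmt2 (-0.19), Kdm1a (0.20) and Chaf1a (-0.39) the difference did not pass, with intervals from -0.73 to 0.35, from -0.09 to 0.48 and from -0.85 to 0.07.

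The 2 sets of undifferentiated control libraries were compared as well, in the same fit. EB day 0 against shNT gave 0 of 10 members at an FDR of 0.05, against 0.387% of 19613 genes. An unadjusted p under 0.05 was found for 2 members, Chaf1b and Rif1, against 17.9% of all genes. DESeq2 called 1111 genes, among them the same 2 members. Their log2 differences were -0.47 ± 0.11 for Chaf1b (FDR 0.0754) and 0.45 ± 0.12 for Rif1 (FDR 0.113), in the direction of the KD effects and about as large. For Dppa2 the difference was -0.31 ± 0.22 (FDR 0.468), the opposite direction to KD. With EB day 0 as the control, Dppa2 was the only member that passed in KD, at 0.89 (FDR 0.0082), against 34.5% of all genes. What separated the control sets cannot be told apart from the experiment they belong to.

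Between the shRNAs, shGas41-1 against shGas41-2 called 0 of 10 members and 0% of 19146 genes. An unadjusted p under 0.05 was found for 1 member (Rif1), against 7.04% of all genes. DESeq2 called no member and 171 genes. Rif1 was 0.34 higher with shGas41-1 (interval from 0.10 to 0.58, FDR 0.524). For Dppa2 the difference was 0.09, with an interval from -0.32 to 0.50 (FDR 0.959). The residual Yeats4 level was lower with shGas41-1, by 0.94 on the log2 scale (interval of the difference from -1.34 to -0.54, FDR 0.198).

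The genes that these regulators control were described from a list of 31 genes of the 2-cell embryo, 22 of which were listed in the tables. Of these, 18 were higher and 0 lower with the mean of both shRNAs, against 11% and 9.45% of all genes. The median log2 fold change was 2.48. By single shRNA, 19 of 21 tested were higher with shGas41-1 and 5 of 21 with shGas41-2. Of all genes, 18.5% passed in either direction with shGas41-1 and 9.91% with shGas41-2. The largest changes were in Tdpoz4 (4.06 ± 0.62, FDR 0.00257), Gm13119 (3.46 ± 0.65, FDR 0.00655), Arg2 (3.14 ± 0.42, FDR 0.00151) and Tdpoz3 (3.00 ± 0.50, FDR 0.00408). The Zscan4, Tdpoz and several Gm genes of the list are close paralogs, between which reads can be split. Their summed level over 21 genes was 461, 87.1 and 59.7 CPM with shNT, 1365, 797 and 1486 CPM with shGas41-1 and 1123 and 485 CPM with shGas41-2. Every KD library was above every shNT library, and the gap was narrow between shNT replicate 1 and shGas41-2 replicate 2. At EB day 0 the sum was 113 and 58.8 CPM, and at EB day 6 it was 2.87 and 2.83 CPM. At EB day 6, 0 genes were higher and 14 of 16 lower, against 30.5% and 28.4% of all genes.

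Dux, the direct target of Dppa2 and Dppa4, had 19, 7 and 1 counts with shNT, 92, 44 and 34 with shGas41-1 and 65 and 35 with shGas41-2. All KD libraries were above all shNT libraries (2.36 ± 0.65, FDR 0.0307). It had 11 and 4 counts at EB day 0 and 1 and 0 at EB day 6, and did not pass the count filter of that comparison. Zscan4f, a target of Dux, had 1633 and 745 counts at EB day 0 and 3 and 0 counts at EB day 6.

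**Figure D3:**
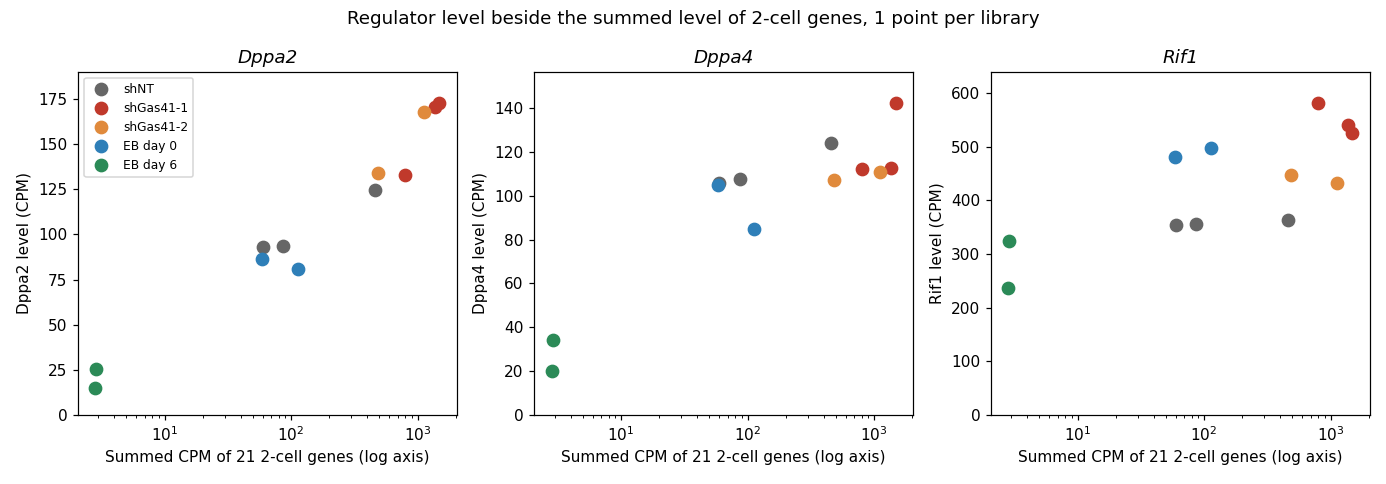
CPM of Dppa2, Dppa4 and Rif1 (vertical axes, from 0) against the summed CPM of 21 genes of the 2-cell embryo (horizontal log axis), with 1 point per library coloured by group. For Dppa2 the KD libraries lie at the upper right and the EB day 6 libraries at the lower left; for Rif1 the EB day 0 libraries (499 and 481 CPM) lie above shNT at a like sum.

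Beyond the 10 members, lists of 116 further genes of the same pathways were examined, of which 114 were tested in KD. These lists include Dux, Zscan4c, Zscan4d and Zscan4f, which the list of genes of the 2-cell embryo also holds. The pooled counts are therefore not counts of regulators alone. With the mean of both shRNAs 10 were higher and 12 were lower, against 11.0% higher and 9.45% lower of all genes. Dux, Zscan4f and Zscan4d were among the higher genes, and the list median was -0.09. At EB day 6, 30 of 113 were higher and 43 lower, against 30.5% and 28.4% of all genes, with a median of -0.08. With EB day 0 in place of shNT as the KD control, the counts were 16 higher and 39 lower, against 16.7% and 17.8% of all 19613 genes in that comparison.

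The partners of Trim28 gave 3 higher and 1 lower of 11 in KD: the zinc finger protein Zfp809, which brings Trim28 to proviral DNA, was 0.53 ± 0.11 higher (FDR 0.00997), and Morc3 (0.38) and Trim24 (0.35) were higher. In the EB comparison 2 were higher and 8 lower of 11, among them the imprint factor Zfp57 (-3.48 ± 0.15, FDR 1.21e-05), Smarcad1 (-1.35) and Morc3 (-0.92). Of 14 genes of H3K9 and DNA methylation, 2 were lower in KD, Suv39h2 (-0.41) and Pphln1 (-0.32). Of them, 5 were higher and 4 lower at EB day 6, with Pphln1, a HUSH complex subunit, at 2.21 ± 0.08 (FDR 8.77e-06), Smchd1 at 1.32 and Suv39h1 at 1.01. Pphln1 was thus lower in KD and higher at EB day 6.

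In the LSD1, CoREST and HDAC list, 2 of 16 genes were lower in KD, among them the HMG box protein Hmg20b (-0.49 ± 0.12, FDR 0.0222). In the EB comparison 6 were higher and 2 lower, with Zmym3, a relative of Zmym2, at -1.60 ± 0.10 (FDR 4.24e-05), against the rise of Zmym2, and Mta1 (1.28) and Rcor3 (0.98) higher. Of 13 histone chaperones, the H3 and H4 chaperone Nasp was the gene that passed in KD (0.42 ± 0.09, FDR 0.0118), and at EB day 6, 2 were higher and 4 lower, with Asf1b (-0.99), Cabin1 (-0.69) and Daxx (-0.52) lower. Of 14 SUMO pathway genes, the SUMO protease Senp1 was lower in KD (-0.57), and 6 were higher and 5 lower at EB day 6, with Senp7 (1.16), Pias2 (-1.04) and Senp3 (-0.99) the largest. Of 11 PRC1.6 genes, Tfdp1 was lower (-0.50 ± 0.09, FDR 0.00495) and Pcgf6 higher (0.31) in KD, and 2 were higher and 4 lower at EB day 6, led by Yaf2 (2.85), E2f6 (1.23) and Wdr5 (-1.10).

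Of 22 further genes listed as repressors, 1 was higher and 4 were lower in KD. The higher gene was Dppa3 (2.01 ± 0.34, FDR 0.00427), a maternal factor that is also a pluripotency marker. Whether Dppa3 represses the 2-cell-like state was not tested. The lower genes included the de novo DNA methyltransferase Dnmt3a (-0.67 ± 0.17, FDR 0.022). They also included the acetyltransferase Kat5 (-0.52 ± 0.10, FDR 0.00702), the catalytic subunit of the Tip60 complex to which Gas41 belongs. At EB day 6, 6 were higher and 8 lower, with Tet2 (-5.20), Zfp42 (-4.87) and Dnmt3b (3.49) the largest. Of 13 activators tested, 4 were higher in KD and 1 lower, and the 3 largest were Dux, Zscan4f (2.25) and Zscan4d (2.23), which the list of genes of the 2-cell embryo also holds. At EB day 6, 1 of 12 was higher and 8 were lower.

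**Figure D4:**
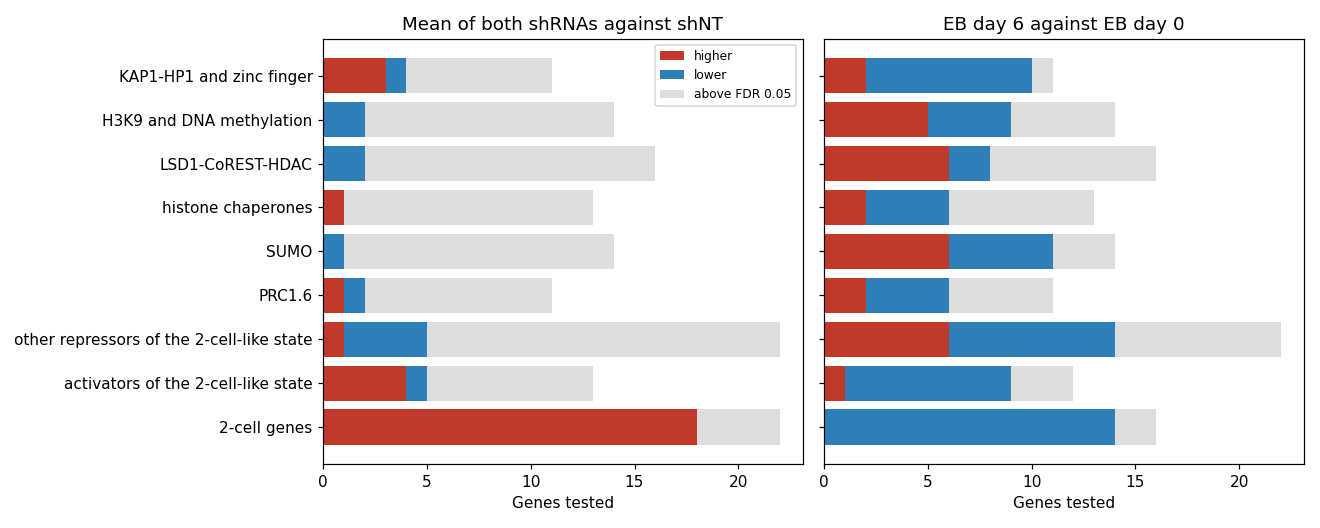
Number of genes (horizontal axis) in each pathway list and in the list of genes of the 2-cell embryo that were higher, lower or above an FDR of 0.05, for the mean of both shRNAs against shNT (left) and for EB day 6 against EB day 0 (right). In KD the genes of the 2-cell embryo were the list with 18 of 22 higher, while at most 4 genes of any pathway list moved in 1 direction.

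The summed level of 14 pluripotency genes was between 7531 and 7962 CPM with shNT and between 6571 and 7557 CPM in KD, where 1 gene was higher (Dppa3) and 3 were lower, Tfcp2l1 (-1.20), Klf4 (-0.90) and Esrrb (-0.75). At EB day 6 it was 2219 and 1840 CPM, with 12 of 14 genes lower. The sum of 15 lineage genes was between 17.5 and 18.8 CPM with shNT, between 22.4 and 34.2 CPM in KD and 1551 and 2175 CPM at EB day 6. In KD, 6 of 15 were higher, among them Gata3 (3.77), Cdx2 (2.14) and Pax6 (1.79), and 1 was lower. For these and the pluripotency genes, the KD shares of all genes were 11% higher and 9.45% lower. The sum of 21 S phase genes was between 4314 and 4442 CPM with shNT, between 4045 and 4548 CPM in KD, 3827 and 3863 CPM at EB day 0 and 3659 and 3693 CPM at EB day 6. In KD, 2 S phase genes were higher (Pola1, 1.23, and Slbp, 0.53) and 2 lower (Rrm1, -0.39, and Rrm2, -0.37), against 11% and 9.45% of all genes. At EB day 6 Chaf1b rose, while 10 of 21 S phase genes fell and 3 rose, against 28.4% and 30.5% of all genes. The sum of 4 fibroblast genes was between 8.08 and 14.2 CPM with shNT, between 5.08 and 10.9 CPM in KD and 41.0 and 128 CPM at EB day 6. The part of differentiated cells in the EB day 6 levels of the members was not tested.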

How the data were processed

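RNA-seq libraries were made by the authors with a TruSeq kit that does not mark strand. Reads were mapped to mm9 with TopHat2 (2.0.10) and counted per gene with HTSeq, and the deposited values are raw counts, with no normalization. The deposited tables also hold the authors' own log2 fold changes, p-values and FDR from edgeR, which were not used. ChIP-seq was not analysed here. The columns named ESC in the EB table were read as EB day 0, since those libraries are the ones that name that table in their labels.

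Counts were tested in R 4.3.3 with edgeR 4.0.16: filterByExpr (minimum count 10, minimum total 15), TMM scaling, glmQLFit and glmQLFTest, with Benjamini-Hochberg adjustment over all genes tested. Single comparisons used their own table, the mean of both shRNAs and the contrast of the shRNAs used 8 libraries, and the other 2 of the 7 comparisons used 12 libraries and the genes listed in all 3 tables. A gene changed at an FDR of 0.05 or less, with 2-fold (the study's rule) as an alternative. DESeq2 1.42.0, other scalings, no filter, the replicate block and each library left out were further alternatives, and the test was checked on simulated counts. Levels are CPM over TMM-scaled library sizes of the 12 libraries, and per kb levels use merged exons of GENCODE vM1 (NCBIM37, mm9). Copies of exons were searched with blastn 2.17.0. Promoters are from RefSeq (GRCm38.p6).

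The members, gene lists and tests were chosen with earlier results of these data known. All members and Yeats4 are named. From each pathway list at most 3 genes, and from each marker or 2-cell list at most 4, are named by absolute log2 fold change among those that passed in the mean of both shRNAs or at EB day 6, and some genes that this rule would name are not reported here. The comparison of KD with EB day 0 was added after seeing the data.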

Additional observations from a re-analysis of the deposited data

How the results depend on the processing

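Groups held 2 or 3 libraries, and every member had at least 14.6 CPM in every library. At 2-fold or more besides the FDR, 0 members passed with shGas41-1, 0 with the mean of both shRNAs, 2 at EB day 6 and 4 for the KD effect minus the EB effect. With shGas41-1 (2 members), scaling by library size, DESeq2 and the 12-library fit each gave 3, adding Chaf1b (FDR 0.0395, 0.0138 and 0.00865), and for the mean of both shRNAs Chaf1b missed with RLE size factors (FDR 0.0502) and with no filter on low counts (0.0703). The 12-library fit gave 7 members at EB day 6, without Kdm1a. With shGas41-2 (0 members), no filter on low counts gave 1 and DESeq2 gave 3, and for EB day 0 against shNT (0 members) DESeq2 gave 2. With EB day 0 in place of shNT, an alternative chosen after seeing the data, 1 member passed in KD (Dppa2), the estimate of Chaf1b turned to 0.17 and those of Setdb1 and Kdm1a, which had not passed, to -0.050 and 0.080. Leaving out 1 library at a time gave between 0 and 4 members for shGas41-1, between 0 and 2 for shGas41-2, between 1 and 4 for the mean of both, between 4 and 8 at EB day 6 and between 0 and 2 for EB day 0 against shNT, where 2 passed without shGas41-1 replicate 3. For shGas41-1 against shGas41-2, 0 members passed under all alternatives run.

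The labels tie no replicate number to a shared culture or day, and the libraries were treated as unpaired. The check of pairing was mixed. Same-numbered shNT and shGas41-1 libraries deviated with r of 0.02, 0.13 and -0.31, and the 2 pairs with shGas41-2 with 0.27 and 0.18. In a group of 2 libraries the deviations mirror each other, so these last 2 values are not independent. For the same reason the 2 EB pairs give 1 value, 0.06. With the replicate block, 0 members passed for shGas41-1 (2 without it), against 1549 of all 18274 genes. For shGas41-2, 5 passed (Trim28, Setdb1, Chaf1b, Dppa2 and Rif1), against 7166 of 18405 genes. For the mean of both 2 passed, against 2787 of 19146 genes, and 8 passed at EB day 6, against 11033 of 18287. With the block, the shGas41-2 and EB fits have very little left from which to estimate the spread between libraries. In the shGas41-2 fit, shNT replicate 3 has no partner and adds nothing to the comparison. The counts of these fits thus do not measure a gain from pairing. With the block, Chaf1a turned to 0.013 with shGas41-2.

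Other signs that turned were of members that did not pass and lay near 0. They were Kdm1a with shGas41-2 (-0.049) and Dppa4 in the mean of both shRNAs (-0.032) with library size scaling, and Ehmt2 at EB day 6 without the filter (0.0099) and in the 12-library fit (0.020). With 1 library left out, Setdb1 ranged from -0.039 to 0.19 with shGas41-1; with shGas41-2, Ehmt2 ranged from -0.28 to 0.076, Chaf1a from -0.15 to 0.016 and Dppa4 from -0.079 to 0.042. Ehmt2 ranged from -0.062 to 0.056 at EB day 6 and Dppa4 from -0.023 to 0.12 in the mean of both. Between the shRNAs, Ehmt2 ranged from -0.33 to 0.061, Chaf1a from -0.22 to 0.010 and Dppa2 from -0.058 to 0.25. For EB day 0 against shNT, Trim28 ranged from -0.0066 to 0.074, Ehmt2 from -0.16 to 0.016 and Chaf1a from -0.011 to 0.16. Over all members, comparisons and settings, 238 values called in the main analysis kept direction and call, 29 kept direction alone and 1 turned (Chaf1b, above).

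The background counts of genes that passed moved as well. DESeq2 called 2932 genes for shGas41-2 (1824 in edgeR) and 1111 for EB day 0 against shNT (76 in edgeR). The 12-library fit called 5425 for shGas41-1 (3383 in its own fit) and 15 between the shRNAs (0 in the 8-library fit). With the block the counts were 1549 for shGas41-1, 7166 for shGas41-2 and 29 for EB day 0 against shNT, and with EB day 0 controls 6759 for the mean of both (3920 with shNT). With 1 library left out they ranged from 1441 to 3848 for shGas41-1, from 306 to 4131 for shGas41-2, from 1848 to 5236 for the mean of both, from 5066 to 10921 at EB day 6 and from 1 to 1662 for EB day 0 against shNT. The causes were not tested.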

Other observations

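Within groups, Dppa2 and Dppa4 were ordered like the genes of the 2-cell embryo, an order noticed after the values were seen. In shNT, shGas41-1 and shGas41-2, the library with the highest summed CPM of 21 such genes (shNT replicate 1 with 461 CPM, shGas41-1 replicate 3 with 1486 CPM, shGas41-2 replicate 1 with 1123 CPM) also had the highest Dppa2 (125, 173 and 168 CPM) and the highest Dppa4 (124, 142 and 111 CPM), and the remaining libraries followed in the same order. Of the 10 members, these 2 had that order in all 3 groups, as did 2333 of 19613 genes (11.9%). At EB day 0 the order was the opposite, with the higher sum in replicate 2 (113 CPM) and the higher Dppa2 (86.6 CPM) and Dppa4 (105 CPM) in replicate 3. Within the 3 KD experiment groups some steps of the order were small. Dppa2 was at 93.6 and 93.2 CPM in shNT replicates 2 and 3, and at 173 and 170 CPM in shGas41-1 replicates 3 and 1. Dppa4 was at 113 and 112 CPM in shGas41-1 replicates 1 and 2. No test was made of this order.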
